A study of Danio rerio with 6 samples.

Results

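L-type calcium channels open when the membrane depolarizes and let calcium into the cell. The pore is formed by a large alpha1 subunit, and an intracellular beta subunit helps bring the pore to the membrane and shapes its gating. In the heart these channels trigger contraction, and in pacemaker cells they contribute to the rise of the action potential. The genes described here are the zebrafish pore genes cacna1c, cacna1da, cacna1db, cacna1sa and cacna1sb and the beta genes cacnb1, cacnb2a, cacnb2b, cacnb3a and cacnb4a. They were chosen by gene symbol, which gave 10 of the 31465 genes in the series, 5 for pores and 5 for beta subunits. A symbol of their own was found for 8 of them. The other 2 carry only the human-style name CACNA1S, so cacna1sa and cacna1sb could not be told apart and are given by their Ensembl identifiers.

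Hearts of the enhancer trap line sqet33mi59BEt, in which GFP marks the sinoatrial ring (SAR) at the inflow of the atrium, were taken from zebrafish embryos at 72 hpf, and their cells were sorted into GFP-positive cells (SAR) and GFP-negative cells, the rest of heart (ROH). Both groups come from the same transgenic line, no treatment is named in the labels, and each group has 3 libraries, each from the pooled hearts of about 500 embryos. The comparison asks which genes differ in level between the pacemaker region and the remaining heart. GFP in this line is an enhancer trap reporter, and the imaging in the study placed it only partly over cardiomyocytes.

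Estimated counts summed to between 7495108 and 77243214 in the SAR libraries and to 999437, 23495798 and 19081874 in ROH replicates 1, 2 and 3. A count of 3 was taken as the smallest detectable amount. As CPM, a count relative to the total of its library, this is 3 in ROH replicate 1 and at most 0.400 in any other. Low values of ROH replicate 1 thus carry little information. These CPM use unscaled library totals, whereas CPM elsewhere are TMM-scaled. The pacemaker channel gene hcn4 was 7.11-fold higher in SAR (log2 fold change 2.83, SE 0.74, adjusted p = 0.0479, edgeR quasi-likelihood test), and 5 of 9 pacemaker markers rose in SAR and 0 fell. The markers that did neither were hcn4l, shox2, isl1 and TBX3, with log2 fold changes of 1.15, 0.37, -1.56 and -0.55 (adjusted p = 0.403, 0.837, 0.163 and 0.451, edgeR). The 5 include tbx18, which is also on the epicardial list, and CACNA1G, described below among the other pore genes. Of 17 tested cardiomyocyte markers 4 rose and 0 fell. Their summed level was 4490, 4750 and 1210 TPM (transcript levels scaled to length and library total) in SAR replicates 1, 2 and 3. In ROH replicates 1, 2 and 3 it was 1560, 1580 and 844 TPM, so SAR replicate 3 lay below ROH replicates 1 and 2. Log2 fold changes of the 17 tested cardiomyocyte markers were positive for 15, with a median of 1.33 against 0.03 over all tested genes. Epicardial and epithelial markers also rose in SAR, 6 of 7 and 9 of 14, while 9 of 12 endothelial, 11 of 11 erythroid and 5 of 15 macrophage markers fell. At the same threshold, an adjusted p below 0.05 by edgeR, 4.88% of all tested genes rose and 5.45% fell. The epithelial markers summed to 9420 to 13300 TPM in SAR and 2460 to 3510 TPM in ROH. In bulk samples of this kind, fewer cells of a type and less RNA per cell cannot be told apart.

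All 10 channel genes had enough counts to be tested, and 0 of 10 passed the test in either direction at an adjusted p below 0.05 with edgeR, as was also the case with DESeq2 and limma. Among the alternative edgeR fits, 3 passed 1 gene each, which was cacnb4a as higher in SAR in 2 of them and cacnb2a as lower in the other. The 2 fits that passed cacnb4a treated libraries of the same replicate number as pairs, which the main fit did not. For all 21969 tested genes, 4.88% passed as higher in SAR and 5.45% as lower. At an unadjusted p below 0.05 there were 4 channel genes, cacnb1, cacnb2a, cacnb3a and cacnb4a, all for beta subunits, where 23.6% of all tested genes reached that level. Point estimates were positive for 8 of 10, and for 11481 of all 21969 tested genes. The median log2 fold change was 0.67 for the 10 against 0.03 over all tested genes. The 3 libraries of each group therefore leave the size of each difference uncertain, and the values in every library are given below with their intervals.

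The beta genes carried most of the family's transcripts per length. The direction of their point estimates differed between paralogues, although 0 of the 5 passed the main test. TPM is a level per length of transcript, and it is the scale on which genes are compared with each other here. The listed lengths were 519 to 550 bases for cacnb1 and 669 to 698 for cacnb2a, against 3377 to 6851 for cacna1c. The order of genes in TPM therefore depends on these listed lengths. The gene cacnb1 (ENSDARG00000002167), whose mammalian counterpart is the beta subunit of skeletal muscle and whose loss paralyses zebrafish larvae, was at 16.3, 12.5 and 15.9 TPM in SAR replicates 1, 2 and 3 and at 9.72, 6.86 and 8.37 TPM in ROH replicates 1, 2 and 3. The lowest SAR library exceeded the highest ROH library. The mean level was 14.9 ± 2.05 TPM in SAR and 8.32 ± 1.43 TPM in ROH (SD, n = 3). The log2 fold change was 0.86 (SE 0.30, 95% interval 0.17 to 1.54), a 1.81-fold higher level in SAR, with an adjusted p of 0.117 by edgeR. The study names cacnb1 among conserved mammalian pacemaker signature genes overexpressed in SAR, by its own analysis and not by this test.

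The order was the opposite for cacnb2a (ENSDARG00000099045), a counterpart of the gene for the main cardiac beta subunit of mammals. Its level was 5.91, 4.91 and 7.10 TPM in the SAR libraries and 8.90, 11.1 and 10.1 TPM in the ROH libraries, with no overlap between the groups. The ROH mean was 10 ± 1.09 TPM and the SAR mean 5.97 ± 1.1 TPM (SD, n = 3). The edgeR estimate was a log2 fold change of -0.76 (SE 0.23, 95% interval -1.29 to -0.23, adjusted p = 0.0768), so that ROH was 1.69-fold higher. This was the smallest adjusted p among the 10 genes. It became 0.0469 by edgeR, with a log2 fold change of -0.87, when libraries were scaled by their totals alone. Under that scaling 957 of all tested genes passed as higher in SAR and 1487 as lower, against 1072 and 1197 in the main fit.

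The second cacnb2 gene, cacnb2b (ENSDARG00000055565), was also lower in every SAR library, at 0.307, 1.05 and 2.56 TPM, than in the ROH libraries, at 4.85, 3.25 and 2.82 TPM. The values in SAR replicate 1 and ROH replicate 1 rest on 3 counts each, with effective lengths of 813 and 215 bases, and SAR replicate 3 lay close to ROH replicate 3. SAR over ROH gave a log2 fold change of -1.24 (SE 0.63, 95% interval -2.68 to 0.20, adjusted p = 0.287 by edgeR), and without SAR replicate 3 it was -2.16 with an adjusted p of 0.0909, an estimate that then depends on the 3 counts of SAR replicate 1 and on SAR replicate 2. RefSeq lists the 2 cacnb2 symbols as synonyms of each other, so the identifiers decide which gene is meant. Their sequences are close relatives, and how Salmon divided shared reads between them was not tested.

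The gene cacnb4a (ENSDARG00000009738), whose mammalian counterpart is best known from the brain, was the most variable of the abundant ones within SAR. Its level was 3.02, 10.9 and 4.14 TPM in SAR replicates 1, 2 and 3 and 0.634, 2.96 and 1.73 TPM in ROH replicates 1, 2 and 3. The value of ROH replicate 1 rests on 1.2 estimated counts, under the smallest amount taken as detectable. SAR replicate 2 was far above the other 2 SAR libraries, and the lowest SAR value was just above the highest ROH value. The log2 fold change was 1.45 (SE 0.56, 95% interval 0.17 to 2.74, adjusted p = 0.156 by edgeR), and it fell to 0.80 without SAR replicate 2, with an adjusted p of 0.389. Over all alternatives the adjusted p ranged from 0.0335 to 0.389, and 2 of 17 passed the test. Those 2 edgeR fits treated libraries of the same replicate number as pairs, without and with length offsets. Their log2 fold changes were 1.53 and 1.58, with adjusted p of 0.0335 and 0.0497. Neuronal markers summed to 1730, 761 and 1140 TPM in the SAR libraries and to 1350, 528 and 560 TPM in the ROH libraries, and SAR replicate 2, the highest for cacnb4a, was the lowest SAR library for these markers. Of 19 neuronal markers 3 rose in SAR and 0 fell, where 4.88% of all tested genes rose and 5.45% fell. Estimates were positive for 16 of the 19, against 11481 of 21969 over all tested genes. The median log2 fold change was 0.83 for these markers and 0.03 for all tested genes. The part of neuronal markers in the level of cacnb4a was not tested.

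The gene cacnb3a (ENSDARG00000001881), related to a mammalian beta subunit of nerve and smooth muscle, was at 0.829, 0.702 and 1.60 TPM in SAR and at 0.601, 0.224 and 0.259 TPM in ROH. Its ROH values rest on 1, 3 and 2 estimated counts, against 3, 21 and 61 in SAR, so it stood at or below the smallest amount taken as detectable in every ROH library. In TPM the groups did not overlap, whereas in CPM the single count of ROH replicate 1 placed that library above all SAR libraries. Its log2 fold change was 2.04 (SE 0.87, 95% interval 0.05 to 4.03, adjusted p = 0.199 by edgeR), and with so few ROH counts the size of the fold is poorly determined.

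**Figure D1:**
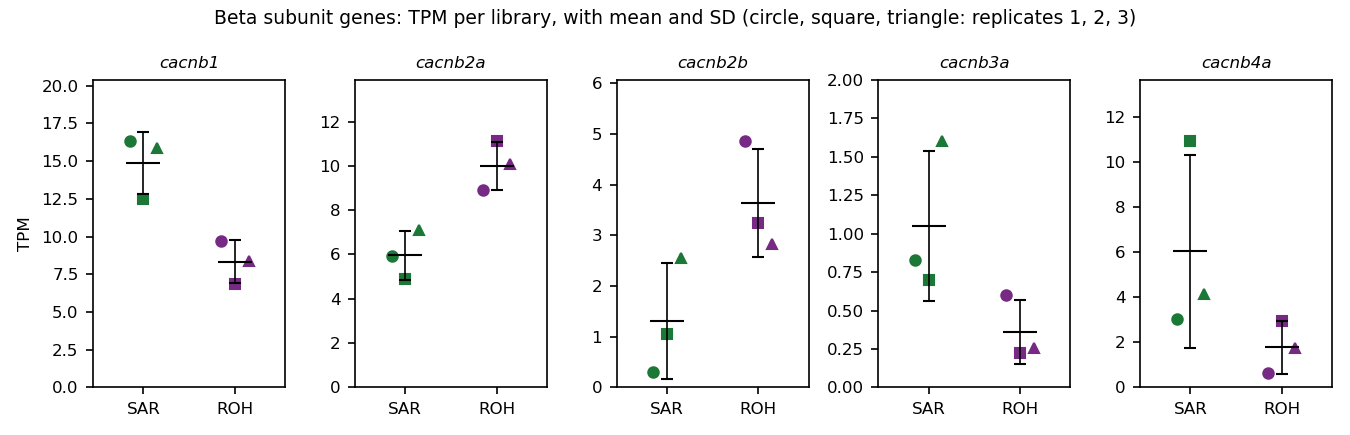
TPM of the 5 beta subunit genes in each SAR (green) and ROH (purple) library, with the group mean (long bar) and SD (error bar, n = 3). Each panel has its own vertical axis starting at 0. The SAR libraries lie above the ROH libraries for cacnb1, cacnb3a and cacnb4a and below them for cacnb2a and cacnb2b, and the SAR spread of cacnb4a comes from the library at 10.9 TPM.

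The make-up of the transcripts of the 5 beta genes was given as each gene's share of their summed TPM in a library. The shares restate the same TPM values, and a rise in 1 share lowers the rest, so they are not separate evidence that the paralogues differ in direction. The share of cacnb1 was 61.7%, 41.6% and 50.7% in SAR and 39.3%, 28.1% and 36.0% in ROH. The share of cacnb2a was 22.5%, 16.3% and 22.7% in SAR and 36.0%, 45.5% and 43.3% in ROH. Both shares separated the groups in every library, with means of 51.4% ± 10.1 and 34.5% ± 5.75 for cacnb1 and of 20.5% ± 3.63 and 41.6% ± 4.93 for cacnb2a in SAR and ROH (SD, n = 3). The share of cacnb2b was 4.28% ± 3.57 in SAR and 15% ± 4.02 in ROH, and that of cacnb4a was 20.3% ± 13.8 and 7.39% ± 4.79. The ratio of cacnb1 to cacnb2a, chosen after the values were seen and therefore not tested, was 2.75, 2.55 and 2.24 in SAR and 1.09, 0.619 and 0.832 in ROH. The sum of the 5 beta genes differed far less, at 26.3, 30.1 and 31.3 TPM in SAR and 24.7, 24.4 and 23.2 TPM in ROH. The 2 other beta genes are in neither the shares nor this sum, and including them would lower every share. They summed to 12.4, 4.58 and 7.64 TPM in SAR and to 14.7, 7.61 and 6.62 TPM in ROH. Most of this was cacnb4b, with means of 6.28 TPM in SAR and 7.35 TPM in ROH. Counted in estimated reads in place of TPM, the share of cacnb1 became 40.3% in SAR and 24.4% in ROH and that of cacnb2a 34.5% and 60.7%, which keeps the direction of both differences but puts cacnb2a nearly level with cacnb1 in SAR.

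**Figure D2:**
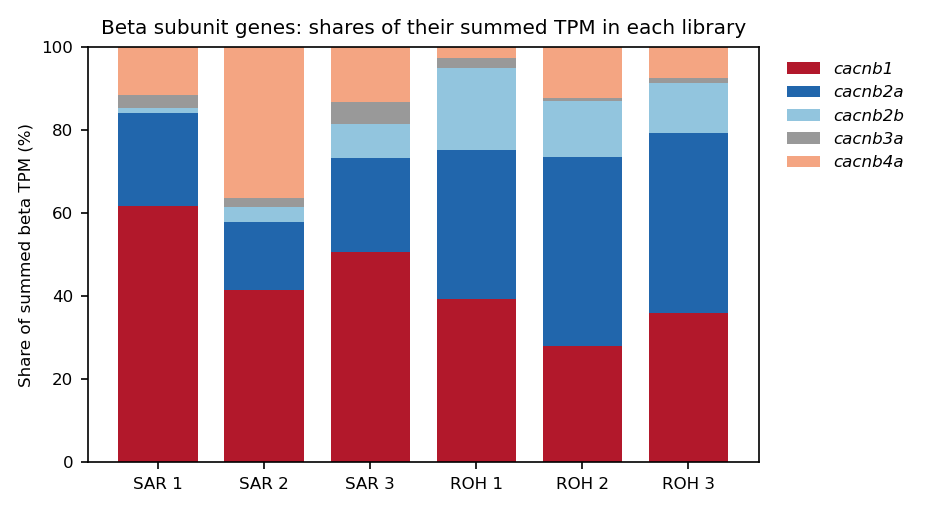
Share of each beta subunit gene in the summed beta TPM of a library, in percent, for the 3 SAR and 3 ROH libraries. The dark red part (cacnb1) spans 41.6% to 61.7% in SAR and 28.1% to 39.3% in ROH, and the dark blue part (cacnb2a) 16.3% to 22.7% in SAR and 36.0% to 45.5% in ROH.

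The pore genes were present at lower levels per length than the main beta genes. Their estimates were positive for 5 of 5, against 11481 of 21969 over all tested genes. The 5 do not include the CACNA1F genes, which are counted below among the other pore genes. Of these, cacna1fa had a log2 fold change of -1.55 (adjusted p = 0.316 by edgeR) and the gene listed as CACNA1F one of 0.59. In TPM every SAR value of cacna1fa lay below every ROH value. ROH replicate 1 held 0 counts of cacna1da, cacna1db and the CACNA1S genes. The gene cacna1c (ENSDARG00000008398), which encodes the main cardiac L-type pore and whose loss in zebrafish disturbs the heartbeat and the growth of the ventricle, was at 0.972, 1.11 and 1.62 TPM in SAR and at 0.331, 0.757 and 0.859 TPM in ROH. The groups did not overlap, but the lowest SAR library and the highest ROH library were close, and ROH replicate 1 held only 2 counts of it. The log2 fold change was 0.75 (SE 0.40, 95% interval -0.18 to 1.67, adjusted p = 0.322 by edgeR). Equal levels in both groups lie within this interval.

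The mammalian gene CACNA1D encodes a pore that opens at more negative voltages and takes part in sinoatrial pacemaking in mice, and it has 2 counterparts here. The gene cacna1db (ENSDARG00000101589) was at 3.44, 3.77 and 4.05 TPM in SAR and at 0, 3.34 and 2.34 TPM in ROH. The SAR libraries were close together and just above the ROH libraries, and the 0 of ROH replicate 1 lies under the detectable amount of that library. On the log2 scale the change was 0.60 (SE 0.59, 95% interval -0.77 to 1.96, adjusted p = 0.636 by edgeR). The gene cacna1da (ENSDARG00000102773) was at 0.135, 0.340 and 0.116 TPM in SAR and at 0, 0.174 and 0.116 TPM in ROH. Its groups overlapped, its log2 fold change was 0.54 (SE 0.70, 95% interval -1.07 to 2.14, adjusted p = 0.735 by edgeR), and without SAR replicate 2 it was -0.03.

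The first place of cacna1db among pore genes depends on the unit. The gene is listed with a length of 802 bases in every library, while the listed length of cacna1c was 3377 to 6851 bases depending on the library. Per length, cacna1db made up 65.4%, 63.9% and 65.4% of the summed pore TPM in SAR and 71.2% and 66.6% in ROH replicates 2 and 3, and cacna1c made up 18.5%, 18.7% and 26.2% in SAR and 16.2% and 24.5% in those ROH libraries. In estimated reads cacna1c led instead, with 53.9% of the pore reads in SAR against 14.7% for cacna1db. ROH replicate 1 had cacna1c as its only detected pore gene, on 2 counts, so its shares are left out here. Without that library the share of cacna1c overlapped between the groups, while that of cacna1db was slightly lower in all SAR libraries than in the other ROH libraries.

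The mammalian CACNA1S encodes the pore of skeletal muscle, where it works as the voltage sensor for contraction. The CACNA1S gene ENSDARG00000042552 was at 0.686, 0.302 and 0.0797 TPM in SAR and at 0, 0.0743 and 0.101 TPM in ROH. SAR replicate 1 was the highest and SAR replicate 3 was level with the ROH libraries. Skeletal muscle markers had their highest summed level in the same library, at 1980, 1060 and 673 TPM in the SAR libraries against 826, 483 and 711 TPM in ROH. Of 21 tested markers 1 was higher in SAR and 0 lower, where 4.88% and 5.45% of all tested genes were. Of the 28 matched markers 1 was at 0 in every ROH library. Their part in the level of this gene was not tested. Its estimated log2 fold change was 2.06 (SE 0.98, 95% interval -0.19 to 4.32, adjusted p = 0.255 by edgeR) and fell to 1.04 without SAR replicate 1. The CACNA1S gene ENSDARG00000029457 did not share this pattern, with 0.0309, 0.382 and 0.326 TPM in SAR and 0, 0.342 and 0.0973 TPM in ROH. Its groups overlapped, and its log2 fold change was 0.37 (SE 0.87, 95% interval -1.62 to 2.35, adjusted p = 0.872 by edgeR).

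**Figure D3:**
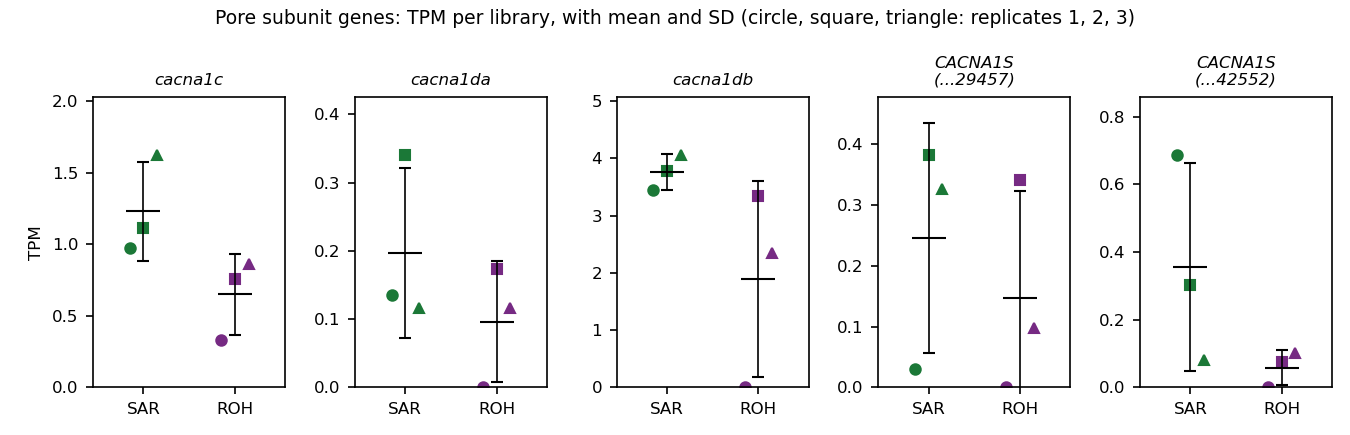
TPM of the 5 pore subunit genes in each SAR (green) and ROH (purple) library, with the group mean (long bar) and SD (error bar, n = 3). Each panel has its own vertical axis starting at 0, and the purple circles at 0 TPM belong to ROH replicate 1, the library with 999437 estimated counts. The SAR libraries lie above the ROH libraries for cacna1c and cacna1db, and the groups overlap for the other 3 genes.

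Across the whole set, SAR TPM lay wholly above ROH TPM for 5 of the 10 genes (cacna1c, cacna1db, cacnb1, cacnb3a and cacnb4a) and wholly below it for 2 (cacnb2a and cacnb2b). Over all tested genes 13.8% were separated upward and 14.7% downward. An exact two-sided permutation test of log2 CPM gave p = 0.1 for cacna1c, cacna1db, cacnb1, cacnb2a, cacnb2b and cacnb4a, the smallest value that 3 against 3 libraries allow, and so cannot pass 0.05 for any gene.

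In order of mean level, the SAR libraries held cacnb1 at 14.9 TPM, then cacnb4a at 6.03, cacnb2a at 5.97, cacna1db at 3.76, cacnb2b at 1.31, cacna1c at 1.23 and cacnb3a at 1.05, with CACNA1S ENSDARG00000042552 at 0.356, CACNA1S ENSDARG00000029457 at 0.246 and cacna1da at 0.197. The library ranges of cacnb4a and cacnb2a overlapped. That of cacnb4a, 3.02 to 10.9 TPM, also took in that of cacna1db, 3.44 to 4.05 TPM. Ranges overlapped as well among cacnb2b, cacna1c and cacnb3a and among the last 3 genes. Of the 10 genes cacnb1 stood highest in every SAR library. The gene cacna1db lay below cacnb2a and above cacnb2b in every SAR library. In ROH the order began with cacnb2a at 10 TPM and cacnb1 at 8.32, whose ranges overlapped, followed by cacnb2b at 3.64, cacna1db at 1.89, cacnb4a at 1.77, cacna1c at 0.649 and cacnb3a at 0.361. From cacnb2b downward each gene's range in ROH overlapped that of the next. Summed beta TPM was 5.0, 5.1 and 5.05 times the summed pore TPM in SAR and 5.20 and 6.62 times in ROH replicates 2 and 3. The 74.7 of ROH replicate 1 again rests on 2 pore counts. Both sums cover only the 10 genes, without the other pore and beta genes.

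**Figure D4:**
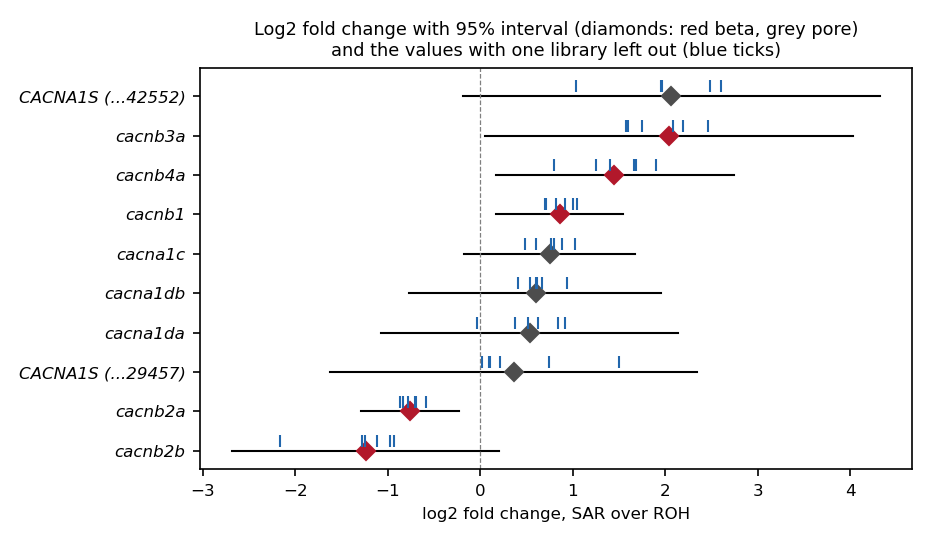
Log2 fold change of SAR over ROH (horizontal axis) for the 10 genes from edgeR, with diamonds for the estimates (red for beta, grey for pore genes), black lines for the 95% intervals and blue ticks for the estimates with 1 library left out. The unadjusted intervals of cacnb1, cacnb3a and cacnb4a lie above 0 and that of cacnb2a below it, and a tick falls on the other side of 0 for cacna1da alone, at -0.03.

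Other pore and beta genes, the further subunit genes and regulators of the channel were examined in the same fit. Of 12 tested other pore genes 1 passed the test, CACNA1G, which encodes a T-type channel active near the resting potential of pacemaker cells. Its level was 3.30, 4.17 and 3.45 TPM in SAR and 0.963, 1.01 and 1.44 TPM in ROH, 2.91-fold higher in SAR by edgeR (log2 fold change 1.54, SE 0.28, adjusted p = 0.0129). Each SAR library was above each ROH library by more than the spread within either group. The median log2 fold change of these 12 genes was 0.53, with positive estimates for 10 of them, and 0 passed as lower. Over all tested genes 4.88% passed as higher, so nothing is read from the 1 of 12 about these genes as a group. The 2 other beta genes were cacnb4b, with a log2 fold change of -0.17, and a gene listed as CACNB3 (ENSDARG00000076030), with -0.07, and 0 passed.

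The alpha2delta subunits, extracellular proteins that raise the number of channels at the membrane, had 0 of 9 genes past the test and a median log2 fold change of 0.18. Of 12 tested gamma subunit genes 1 passed, cacng6a, whose level of 3.56, 3.29 and 0.981 TPM in SAR and 0, 0.213 and 0.316 TPM in ROH gave a log2 fold change of 3.71 (SE 0.83, adjusted p = 0.0278, edgeR). SAR replicate 3, the lowest SAR library for this gene, was still above all ROH libraries. The 0 belongs to ROH replicate 1, the library with 999437 estimated counts. With 4.88% of all tested genes passing as higher, nothing is read from these counts about the alpha2delta or gamma genes as groups.

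Of 50 tested regulators of the channel 2 rose and 0 fell, with a median log2 fold change of 0.17. This count is close to what the 4.88% of all tested genes that passed as higher would give, so nothing is read from it about the regulators as a group. The gene adrb1, for a beta-adrenergic receptor through which adrenaline raises L-type current, was at 10, 13.0 and 14.9 TPM in SAR and 2.38, 3.02 and 5.23 TPM in ROH, a 3.25-fold higher level (log2 fold change 1.70, SE 0.38, adjusted p = 0.0286, edgeR). The gene ahnak, for a large scaffold protein that binds beta subunits in mammals, was at 10.4, 9.87 and 11.2 TPM in SAR and 5.44, 6.62 and 5.85 TPM in ROH, 1.68-fold higher (log2 fold change 0.74, SE 0.17, adjusted p = 0.0306, edgeR). For both genes the groups were well separated. The ahnak estimate, 0.74, was close in size to those of cacna1c at 0.75 and cacnb1 at 0.86, whose standard errors of 0.40 and 0.30 were larger.

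**Figure D5:**
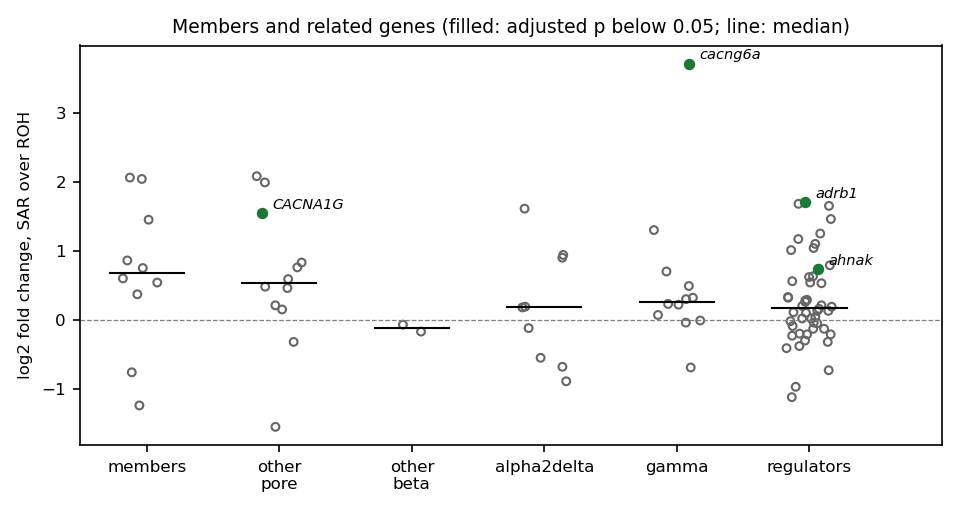
Log2 fold change of SAR over ROH for the 10 channel genes (members) and for the tested genes of the related lists, 1 circle per gene, with the median of each list as a line. Filled circles passed an adjusted p of 0.05 in edgeR, which were CACNA1G, cacng6a, adrb1 and ahnak and none of the 10.

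Patterns across the 6 libraries most like those of the leading pore and beta gene were sought by Pearson correlation of log2(TPM + 1), as a description over libraries that also differ in depth. For cacna1db these were TYR, the pigment enzyme tyrosinase, with r = 0.9967, MLXIP, a glucose-responsive transcription factor, with r = 0.9947, and usp24, a deubiquitinase, with r = 0.9925. All were lowest in ROH replicate 1. For cacnb1 they were agap3, encoding a GTPase-activating protein, with r = 0.9993, etv4, an ETS transcription factor, with r = 0.9970, and si:ch211-257p13.3 with r = 0.9961. These are the top of a ranking of the 21969 tested genes over only 6 libraries. An r of at least 0.9 was reached by 691 genes with cacna1db and by 473 with cacnb1. How many came as high as those named was not counted.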

How the data were processed

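FACS-sorted cells of 3 SAR and 3 ROH libraries, grouped by their labels, were sequenced (SMART-Seq v4, Nextera XT, polyA RNA). The authors used bcl2fastq (version 2.16.10) and cutadapt per the submitters' processing notes and quantified genes of GRCz11 with Salmon, whose version is not given in the sources used here. The authors deposited an estimated count for each gene, computed by Salmon. The authors also deposited TPM values, which Salmon scaled by effective length and library total. Listed lengths are Salmon's, and gene names were matched by Ensembl identifier.

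Estimated counts were rounded, filtered with filterByExpr (minimum count 10, minimum total 15), scaled by TMM and tested with edgeR (version 4.0.16, R version 4.3.3) by a quasi-likelihood fit on the fraction alone. The Benjamini-Hochberg adjustment covered the 21969 tested genes, and a gene passed the test at an adjusted p below 0.05. CPM are TMM-scaled, and the permutation test used log2 CPM with a prior count of 2. Shares and ratios of TPM were not tested. Intervals of fold changes are unadjusted. Alternatives included DESeq2 (version 1.42.0), limma (version 3.58.1) on log2(TPM + 1), other scalings and filters, length offsets, thinning, a replicate block and each library left out in turn.

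Named genes were the 10 members, every related gene past the test, and the 3 genes most correlated with the leading pore and beta gene. The members and lists were chosen with earlier results of these data known. The replicates are separate pools of embryos, as the study states. The study describes sorting the dissociated hearts into both fractions, and the labels number the replicates of both alike. Neither states that the same number means the same pool.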

Additional observations from a re-analysis of the deposited data

How the results depend on the processing

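The log2 fold changes of the 10 genes, recomputed under every alternative that gave a value, kept their direction and their side of the threshold in 164 of 168 cases. The exception in direction was cacna1da without SAR replicate 2, at -0.03, the lowest of its values with 1 library left out, which reached up to 0.92. With the replicate block cacnb4a passed the test (log2 fold change 1.53, adjusted p = 0.0335 by edgeR), so that 1 gene of the set was higher in SAR, and with the block and length offsets again 1 (1.58, adjusted p = 0.0497). With library totals only, 1 gene, cacnb2a, was lower. The deviations of same-numbered libraries correlated at 0.0985, 0.273 and 0.124, each library correlating best with its own number. The labels number the replicates of both fractions alike but name no shared pool, so the block is an alternative and not the main test. Under it 1487 genes were higher and 1593 lower, against 1072 and 1197. For cacnb1 and cacnb2a the block gave adjusted p of 0.0576 and 0.0618 by edgeR, against 0.117 and 0.0768 in the main fit.

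Counts of all genes past the test depended more on the method. The genes higher in SAR were 519, 131 and 642 with limma on log2(TPM + 1), on log2(TPM + 0.1) and at a mean of at least 1 TPM, 624 when a log2 change of 1.5 or more in size was also required, and 448 to 1117 with 1 library left out. The genes lower in SAR were 596 and 91 with the first 2 of these, 785 with at least 10 counts in every library, and 512 to 1342 with 1 library left out. That filter left only cacnb1 and cacnb2a of the 10 testable, as did thinning to the smallest library, and CACNA1S ENSDARG00000042552 could not be tested without SAR replicate 2. In estimated counts the ratio of beta to pore was 3.88 in SAR, and the shares in SAR were 53.9% for cacna1c, 14.7% for cacna1db, 40.3% for cacnb1 and 34.5% for cacnb2a, and in ROH 24.4% for cacnb1 and 60.7% for cacnb2a. Depth limits most genes of the set, since ROH replicate 1 held 3 or fewer estimated counts of every pore gene and of cacnb2b, cacnb3a and cacnb4a.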
